A study of Rattus norvegicus with 8 samples.

Results

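The 10 genes examined encode the hypothalamic peptides that drive or restrain the pituitary gland. *Ghrh*, *Sst*, *Trh*, *Crh*, *Gnrh1*, *Kiss1*, *Tac3* and *Pdyn* make up the hypophysiotropic group, with the peptides that pace GnRH included, and *Avp* and *Oxt* the neurohypophyseal group. They were taken as a fixed list of names out of 15159 genes named on the array, each by its brightest probe. For 9 of 10 a probe was matched by accession. No probe was so matched to *Oxt*, which has no value here, and whether an unnamed probe covers it is not known. RNA came from frozen blocks of hypothalamus, arcuate nuclei included, of male F344N rats kept in SD (8 h light, 16 h dark). In 4 rats all-trans retinoic acid (RA) was injected into the third ventricle in a volume of 5 µl, 4 rats received vehicle, and all were killed 24 hrs later. The labels give RA at 1e-05 M against saline. The methods give 1e-04 M RA, dissolved in saline with 10% DMSO, for the experiment with 4 rats a group, which is the group size of the arrays, and 1e-05 M for a repeat that supplied tissue for in-situ hybridisation. Each of the 8 two-colour arrays carried RA material in one dye and vehicle material in the other. RA was in Cy5 on arrays 1, 3, 6 and 8 and in Cy3 on arrays 2, 4, 5 and 7. The slide held arrays 1 to 4 in its row 1 and the others in its row 2. Which rats met on which array is not given in the labels, so the 8 arrays are repeat readings of 4 RA-injected and 4 vehicle-injected rats.

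GHRH and somatostatin (encoded by *Sst*) reach the anterior pituitary through the portal vessels of the median eminence and respectively stimulate and inhibit growth hormone release, while TRH stimulates thyrotropin and CRH corticotropin. GnRH drives the gonadotropins, and its pulses are paced by arcuate neurons that make kisspeptin, neurokinin B (*Tac3* in the rat) and dynorphin (*Pdyn*). Vasopressin (*Avp*) and oxytocin (*Oxt*) are made by magnocellular neurons of the supraoptic and paraventricular nuclei, whose axons release them in the posterior pituitary, and vasopressin is also made in the suprachiasmatic nucleus. In F344 rats, growth, feeding and reproduction depend on day length, and hypothalamic retinoic acid signalling differs between photoperiods, so the comparison asks whether these hormone genes differ when RA is supplied in SD.

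A log2 ratio of 1 means a doubling in RA over vehicle, and a mean is given with the standard error (SE) and p of limma, fitted on the means of couples of arrays with opposite dye order. All 24 ways of coupling were fitted and the largest p kept. No probe of 30367 passed a Benjamini-Hochberg adjusted p of 0.05 in this test (lowest 0.222), so calls use the methods' unadjusted p of 0.01. By that threshold 792 probes (2.61%) were higher and 196 (0.645%) lower after RA, and 3291 (10.8%) had a p under 0.05. Levels of the vehicle and RA channels are log2 normalised intensities, which cannot be set against those of another probe.

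The promoters of the genes on which the results turn are shown first, because RA acts through nuclear receptors that bind DNA at the hexamer AGGTCA, usually as a repeated pair. The sequences are the 250 bases before the RefSeq transcription start in build GRCr8, 5′ to 3′ on the strand of the gene, with AGGTCA on either strand (read as TGACCT on the other) in capitals.
*Avp* (chr3:138248523-138248772, minus strand): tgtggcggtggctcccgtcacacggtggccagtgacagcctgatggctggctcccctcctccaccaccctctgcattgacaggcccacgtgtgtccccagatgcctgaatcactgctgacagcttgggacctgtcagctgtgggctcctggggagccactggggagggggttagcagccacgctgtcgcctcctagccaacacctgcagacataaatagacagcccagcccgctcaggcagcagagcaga
*Ghrh* (chr3:166431881-166432130, minus strand): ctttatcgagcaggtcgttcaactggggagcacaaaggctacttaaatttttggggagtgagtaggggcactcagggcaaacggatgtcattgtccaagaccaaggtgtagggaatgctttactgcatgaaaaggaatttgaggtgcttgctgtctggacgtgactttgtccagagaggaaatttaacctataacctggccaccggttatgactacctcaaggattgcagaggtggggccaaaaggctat
*Pdyn* (chr3:137366504-137366753, minus strand): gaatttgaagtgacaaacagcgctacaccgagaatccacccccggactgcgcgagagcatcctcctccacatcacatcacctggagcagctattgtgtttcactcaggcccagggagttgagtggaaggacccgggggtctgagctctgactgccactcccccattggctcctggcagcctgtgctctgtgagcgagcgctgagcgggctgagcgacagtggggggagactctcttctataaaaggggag
*Trh* (chr4:126301763-126302012, minus strand): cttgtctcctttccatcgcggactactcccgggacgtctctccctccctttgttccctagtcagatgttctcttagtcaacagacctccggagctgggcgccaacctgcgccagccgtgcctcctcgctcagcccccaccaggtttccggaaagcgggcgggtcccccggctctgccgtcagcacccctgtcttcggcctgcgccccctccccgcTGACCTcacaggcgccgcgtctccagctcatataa
Promoters were held for 7 of the 10 genes (*Ghrh*, *Sst*, *Trh*, *Kiss1*, *Pdyn*, *Avp* and *Oxt*). The hexamer stood in 2 of these 7, once in *Trh*, starting 35 bases before the start, and at 2 positions in *Oxt*, 190 and 171 bases before it. In 4707 of 33469 promoters of the same length (14.1%) the hexamer was found. A repeat of it with a gap of 5 bases, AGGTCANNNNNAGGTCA, was in none of the 7 and in 3 promoters of all. The cyclic AMP response element TGACGTCA was in none of the 7 and in 1.59% of all. These matches describe letters in this window and no binding was measured.

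Of the 9 measured hormone genes, 0 passed the methods' threshold in either direction by limma, and 0 passed the adjusted p. The call hung on the coupling of the arrays for 5 genes. The p was under 0.01 in 20 of the 24 couplings for *Avp*, 17 for *Ghrh*, 5 for *Tac3*, 2 for *Crh*, 2 for *Gnrh1* and 0 for the other 4. The labels do not say which arrays repeat the same rats. A coupling that parts such repeats treats them as independent, so its p can be too small. At an unadjusted p under 0.05, *Avp* was higher and *Ghrh* lower, 2 of 9 against 10.8% of all probes. Of the 15159 named genes, each by its brightest probe as here, 1286 were higher and 693 lower at that p. The mean ratio was above 0 for 6 genes and below 0 for 3, with a median of 0.17 against 0.00 for all named genes. It was above 0 for 7216 named genes and below 0 for 7943. Most of the genes differed widely from array to array. The SD over the 8 arrays was 0.83 for *Gnrh1*, 0.60 for *Avp*, 0.59 for *Crh* and 0.56 for *Pdyn*, each larger than that of at least 98.4% of 10877 named genes well above background. Bulk tissue was measured, so fewer cells of a type and less RNA per cell cannot be told apart in any of these values.

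**Figure D1:**
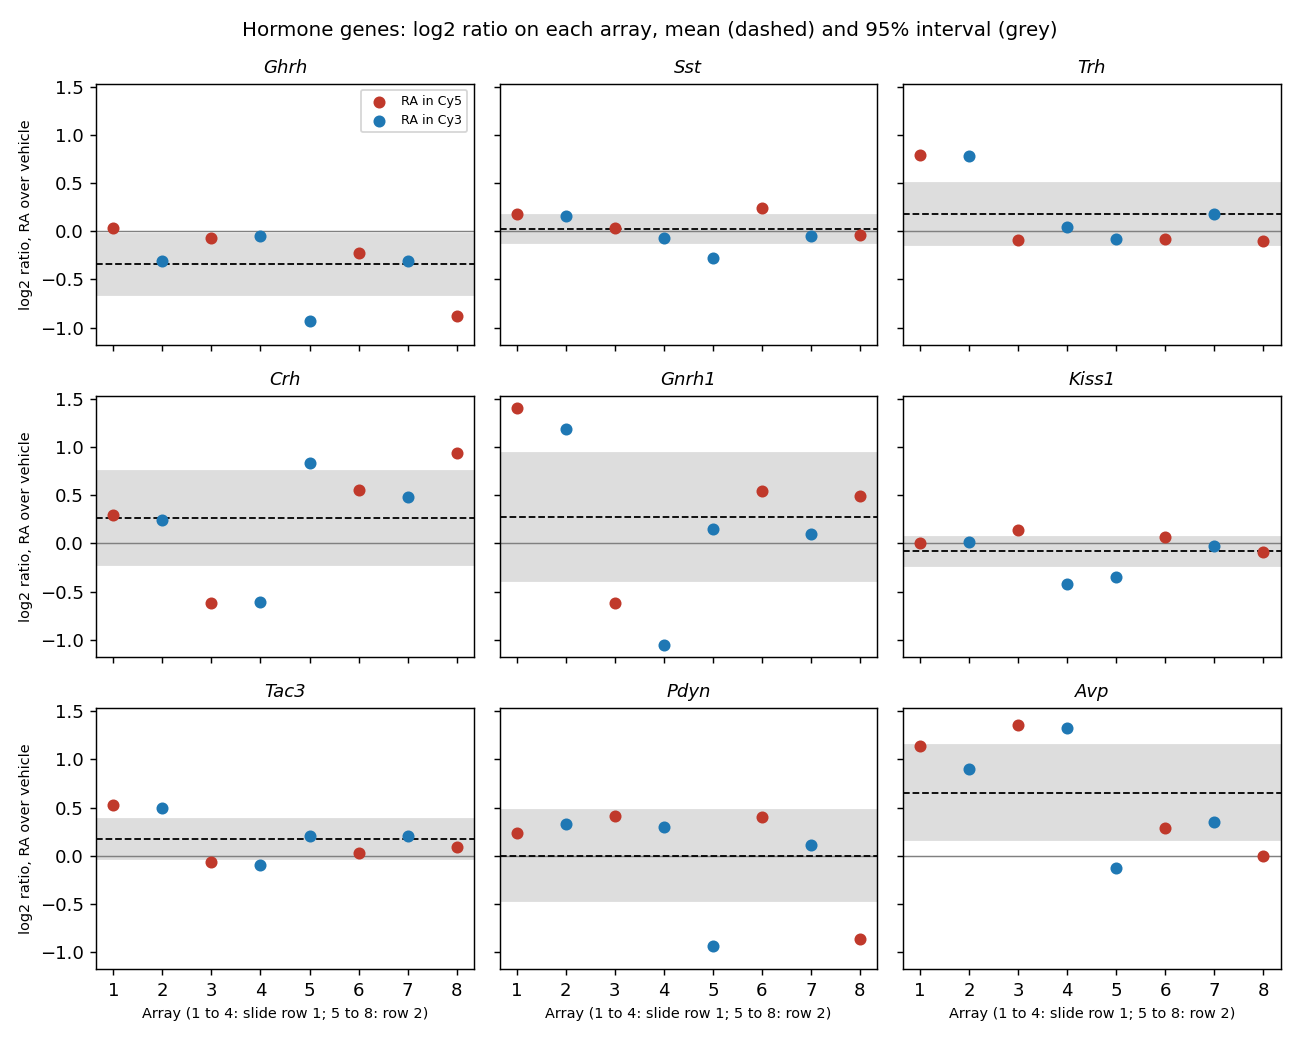
Log2 ratio of RA over vehicle (vertical axis) on arrays 1 to 8 (horizontal axis) for the 9 measured hormone genes, one point per array, coloured by the dye that carried RA, with the mean as a dashed line and its 95% interval in grey. *Avp* lies at 0.90 or above on arrays 1 to 4 and at 0.35 or below on arrays 5 to 8, *Pdyn* and *Ghrh* have their lowest values on arrays 5 and 8, and *Trh* its highest on arrays 1 and 2.

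*Avp*, the vasopressin precursor, had the largest mean ratio of the group. The log2 ratio was 1.13, 0.90, 1.36 and 1.33 on arrays 1 to 4, and -0.13, 0.29, 0.35 and -0.01 on arrays 5 to 8. It was thus above 0 on 6 of 8 arrays, and the 4 arrays of row 1 did not overlap the 4 of row 2. The mean was 0.65 (SE 0.21, 95% interval 0.16 to 1.15, 1.57-fold), with an unadjusted p = 0.0165 and adjusted p = 0.339 by limma. This p was the largest of the 24 couplings. The smallest, 1.49e-07, can be too small, since its coupling may part repeat readings of the same rats. By dye order the mean was 0.69 where Cy5 carried RA and 0.61 where Cy3 did, and this difference did not pass limma's test (adjusted p = 0.922). The mean was 1.18 in row 1 and 0.13 in row 2, a difference of -1.06 (row 2 minus row 1, limma adjusted p = 0.00367). This test counts the 8 arrays as independent although rats recur among them, and row and rats cannot be told apart. Without arrays 5 and 8 the mean was 0.89 (SE 0.17, unadjusted p = 0.00211, adjusted p = 0.632 by limma), where 1.10% of probes were called higher. These arrays had the lowest *Avp* ratios. They were set aside with their low values for arcuate genes known, so this p supports nothing by itself.

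The levels show where the spread of *Avp* lay. In the RA channel the log2 level was 15.15, 15.24, 15.42 and 15.49 on arrays 1 to 4 and 15.30, 15.09, 15.16 and 15.20 on arrays 5 to 8. In the vehicle channel it was 14.01, 14.34, 14.06 and 14.16 on arrays 1 to 4, but 15.43, 14.80, 14.81 and 15.21 on arrays 5 to 8. The RA levels (SD 0.14) thus stayed within a narrow range in both rows, and the vehicle levels (SD 0.54) were low in row 1 and high in row 2. No spot of the probe was saturated on any array. *Oxt*, which lies next to *Avp* in the genome and encodes the companion hormone, has no value for comparison.

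*Ghrh*, the stimulator of growth hormone release, had a mean below 0. Its log2 ratio was 0.03, -0.31, -0.07 and -0.05 on arrays 1 to 4, and -0.94, -0.23, -0.31 and -0.88 on arrays 5 to 8, below 0 on 7 of 8 arrays. The values of arrays 5 and 8 lay far below the other 6, whose range was -0.31 to 0.03. The mean was -0.34 (SE 0.13, 95% interval -0.66 to -0.03), with an unadjusted p = 0.0360 and adjusted p = 0.418 by limma. Without arrays 5 and 8 the mean was -0.16 (SE 0.07, unadjusted p = 0.0592 by limma). In the vehicle channel the level was 10.82 and 10.55 on arrays 5 and 8 and between 9.60 and 10.06 on the other 6, while in the RA channel arrays 5 and 8 (9.88 and 9.67) lay inside the range of the other 6 (9.38 to 9.98).

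*Sst*, which encodes the inhibitor of growth hormone release, had a mean near 0. Its log2 ratio was 0.18, 0.16, 0.03 and -0.07 on arrays 1 to 4, and -0.28, 0.25, -0.05 and -0.04 on arrays 5 to 8, with 4 arrays on either side of 0. The mean was 0.02 (SE 0.06, 95% interval -0.13 to 0.17, limma unadjusted p = 0.730). The vehicle level lay between 13.85 and 14.45 and the RA level between 14.00 and 14.17.

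*Trh*, the thyrotropin releasing hormone gene, was high on arrays 1 and 2 alone, at 0.80 and 0.78. The other 6 arrays gave -0.10, 0.05, -0.09, -0.08, 0.18 and -0.10 in array order. The mean was 0.18 (SE 0.14, 95% interval -0.14 to 0.50, limma unadjusted p = 0.232), and it was -0.02 when arrays 1 and 2 were left out. On array 7 an outlier spot had been dropped, and with it kept the ratio there was -0.66 and the mean 0.08. On these arrays the vehicle level was 10.12 and 9.97, against 10.36 to 10.64 on the others, and the RA level was 10.92 and 10.74, against 10.26 to 10.77. The vehicle level was thus the part that stood apart on both arrays.

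*Crh*, the corticotropin releasing hormone gene, had ratios of 0.29, 0.25, -0.62 and -0.60 on arrays 1 to 4, and 0.84, 0.56, 0.48 and 0.93 on arrays 5 to 8. Arrays 3 and 4 were low and all 4 arrays of row 2 were higher than every array of row 1. The mean was 0.27 (SE 0.21, 95% interval -0.23 to 0.76, limma unadjusted p = 0.244). It was -0.17 in row 1 and 0.70 in row 2, and the difference between rows had an adjusted p of 0.0981 by limma. The vehicle level was 9.13, 9.05, 9.48 and 9.59 on arrays 1 to 4 and 8.81, 8.79, 8.83 and 8.49 on arrays 5 to 8. The RA level was 9.43, 9.30, 8.85 and 8.98, then 9.64, 9.34, 9.31 and 9.43. In vehicle all 4 arrays of row 1 lay above those of row 2, the opposite order to *Avp*. Without arrays 3 and 4 the mean was 0.56, and without arrays 5 and 8 it was 0.06. The second *Crh* probe had a smaller mean of 0.17 (SE 0.13) and the same split, -0.08 in row 1 and 0.43 in row 2.

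*Gnrh1*, which encodes the releasing hormone for the gonadotropins, had the widest range. Its ratio was 1.41, 1.19, -0.62 and -1.06 on arrays 1 to 4, and 0.15, 0.55, 0.10 and 0.50 on arrays 5 to 8. Arrays 1 and 2 stood above all others and arrays 3 and 4 below. The mean was 0.28 (SE 0.28, 95% interval -0.39 to 0.94, limma unadjusted p = 0.359). The vehicle level was 8.84 and 9.25 on arrays 3 and 4 against 7.55 to 7.86 elsewhere. The RA level was 9.11 and 8.81 on arrays 1 and 2, above the 7.89 to 8.23 of the other 6. Without arrays 1 and 2 the mean was -0.06, and without arrays 3 and 4 it was 0.65.

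*Kiss1*, the kisspeptin gene, was at the edge of detection. Its probe was well above background in the Cy5 channel of all 8 arrays and in the Cy3 channel of none, whichever of RA or vehicle was in that dye. The ratio was 0.00, 0.02, 0.14 and -0.42 on arrays 1 to 4, and -0.35, 0.07, -0.03 and -0.09 on arrays 5 to 8. The mean of -0.08 (SE 0.06, limma unadjusted p = 0.249) is therefore a ratio against background. The level lay between 6.44 and 7.00 in vehicle and between 6.41 and 6.65 in RA, and an effect on *Kiss1* was not detectable at this signal.

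*Tac3*, the neurokinin B gene, had ratios of 0.52, 0.50, -0.07 and -0.09 on arrays 1 to 4, and 0.20, 0.02, 0.21 and 0.09 on arrays 5 to 8. Like *Trh*, it was highest on arrays 1 and 2. The mean was 0.17 (SE 0.09, 95% interval -0.04 to 0.38, limma unadjusted p = 0.0943), and it was 0.06 without arrays 1 and 2. The vehicle level was 10.75 and 10.68 on those arrays, 10.63 on array 5 and 11.17 to 11.31 on the rest. The RA level was 10.83 on array 5 and 11.13 to 11.38 on the rest, so array 5 was low in both channels.

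*Pdyn*, the prodynorphin gene, had a mean of -0.00 (SE 0.20, 95% interval -0.47 to 0.47, limma unadjusted p = 0.995), made of values that opposed each other. On arrays 1 to 4 the ratio was 0.24, 0.33, 0.42 and 0.30, and on arrays 6 and 7 it was 0.40 and 0.11, whereas arrays 5 and 8 gave -0.94 and -0.86. No value lay between 0.11 and -0.86. Over the 6 arrays other than 5 and 8, all above 0, the mean was 0.30 (SE 0.05), with an unadjusted p = 0.00157 and adjusted p = 0.632 by limma, beside 1.10% of probes called higher. The arrays were set aside with their low values for arcuate genes known, so this p supports nothing by itself. In the vehicle channel the level was 12.18 and 12.03 on arrays 5 and 8 and 10.87 to 11.32 on the others, and in the RA channel it was 11.24 and 11.16 on arrays 5 and 8 and 11.18 to 11.71 on the others.

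**Figure D2:**
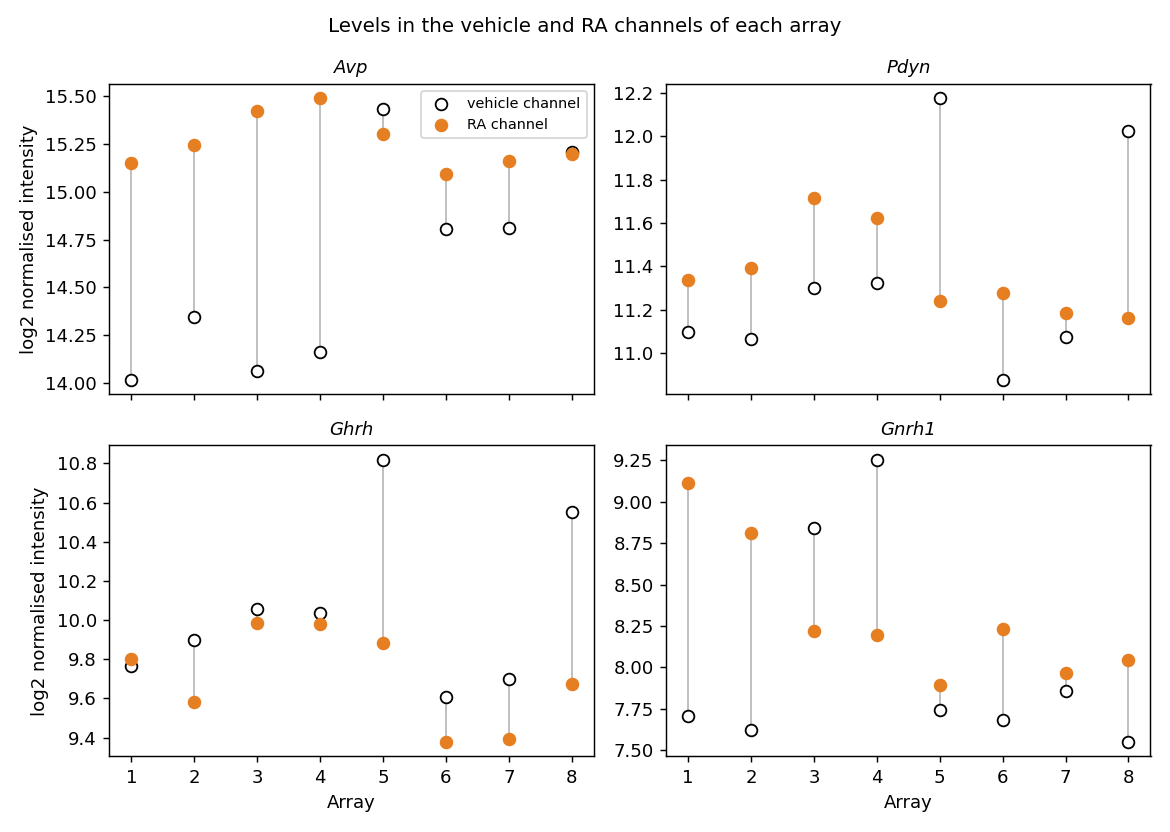
Log2 normalised intensity (vertical axis) in the vehicle channel (open circles) and the RA channel (filled circles) on arrays 1 to 8 (horizontal axis) for *Avp*, *Pdyn*, *Ghrh* and *Gnrh1*, with a grey line joining the channels of an array. The vehicle circles spread more than the RA circles in all 4 panels, with SDs of 0.54 against 0.14 for *Avp*, 0.48 against 0.20 for *Pdyn*, 0.43 against 0.24 for *Ghrh* and 0.64 against 0.43 for *Gnrh1*.

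In all 8 genes that were well above background in both channels of every array, which leaves out *Kiss1*, the SD of the level over arrays was larger in the vehicle channel than in the RA channel. The same was true of 49.2% of 9462 named genes so detected. The median SD of the 8 genes was 0.40 in vehicle and 0.21 in RA, while over the named genes it was 0.16 in vehicle and 0.17 in RA. The SD in vehicle was 3.86 times that in RA for *Avp*, 2.81 times for *Sst* and 2.35 times for *Pdyn*, and the lowest multiple was 1.13 for *Trh*. The arrays hold repeat readings of 4 vehicle-injected rats, so these SDs describe the arrays and no test was made of them.

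**Figure D3:**
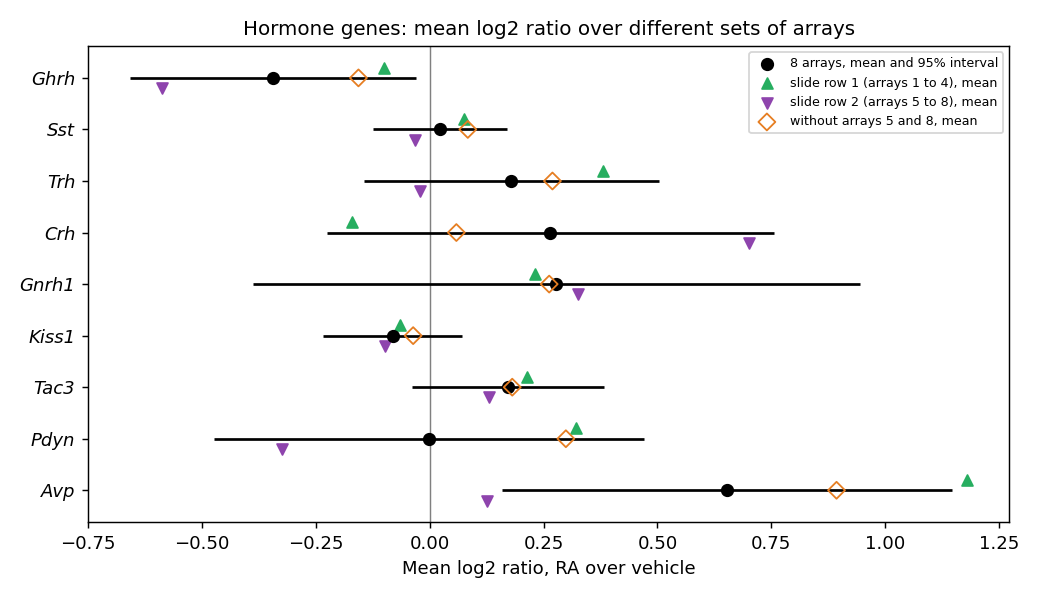
Mean log2 ratio of RA over vehicle (horizontal axis) for the 9 hormone genes (vertical axis), over all 8 arrays with the 95% interval as a line, over the 4 arrays of each slide row as triangles, and without arrays 5 and 8 as diamonds. The intervals of *Avp* (0.16 to 1.15) and *Ghrh* (-0.66 to -0.03) leave out 0, and the row means of *Avp* (1.18 and 0.13), *Crh* (-0.17 and 0.70) and *Pdyn* (0.32 and -0.32) lie far apart.

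The values fell in couples of arrays with opposite dye order. The mean absolute difference over the 9 genes was 0.11 between arrays 1 and 2, 0.16 between arrays 3 and 4, 0.15 between arrays 5 and 8, and 0.20 between arrays 6 and 7. For the other 12 couples of opposite dye order it lay between 0.35 and 0.80. On arrays 1 and 2, 8 of 9 genes were above 0 on both arrays and 0 below on both, where 24.3% of named genes were below. The share of named genes above 0 on both was not taken for any couple. On arrays 5 and 8, 6 of 9 were below 0 on both, where 27.9% of named genes were, and the other 3 (*Crh*, *Gnrh1* and *Tac3*) were above 0 on both. None of the 9 genes differed between dye orders at an adjusted p of 0.05, against 3.89% of probes, and *Avp* alone differed between slide rows, against 1.62% of probes.

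Of 51 other genes measured on these hormone axes, 2 passed the methods' threshold (3.92%), against 3.25% of all probes in either direction. Both were lower, where 0.645% of all probes were lower and 2.61% higher. Of the 15159 named genes, each by its brightest probe as here, 120 were lower and 534 higher. Of 20 receptors listed for the hormones and their partners, 18 were measured and 13 were well above background. None passed the methods' threshold by limma, 15 of 18 means lay below 0 and the median was -0.09. Of all named genes, 7943 of 15159 means lay below 0 and the median was 0.00. By limma the smallest p was that of *Sstr2*, a somatostatin receptor, at -0.14 (SE 0.06, unadjusted p = 0.0404, adjusted p = 0.432), which lay below 0 on 7 of 8 arrays. It was followed by *Sstr4*, another somatostatin receptor, at -0.11. The kisspeptin receptor gene *Kiss1r* had a mean of -0.11. *Gnrhr*, the GnRH receptor of the pituitary, was not well above background in either channel of any array.

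Of 6 genes that bind or break down the peptides, 5 were measured and 0 passed the threshold. *Crhbp*, which encodes a secreted protein that binds CRH, had a mean of -0.18 (unadjusted p = 0.0377, limma), and *Mme*, the peptidase neprilysin, one of -0.16. The *Crhbp* ratio was -0.43 and -0.40 on arrays 5 and 8, where *Crh* was highest, and between -0.30 and 0.00 on the others. The other arrays did not keep this order. *Crhbp* was at -0.03 and -0.04 on arrays 6 and 7, where *Crh* was at 0.56 and 0.48. It was at -0.11 and -0.12 on arrays 3 and 4, where *Crh* was lowest. A link between these genes was not tested.

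Of 15 genes of prohormone processing and the secretory granule, 14 were measured, 12 had a mean below 0 and the median was -0.13. A mean below 0 was found for 7943 of 15159 named genes. By the methods' threshold 1 was lower and 0 were higher. This was *Chga*, the granule protein chromogranin A, at -0.17 (SE 0.05, unadjusted p = 0.00993, adjusted p = 0.306, limma). Its ratio lay between -0.39 and 0.03 and was below 0 on 7 of 8 arrays. Without arrays 5 and 8 its p was 0.0497 and without arrays 6 and 7 it was 0.0268 (limma, unadjusted), so the call was lost in both fits. At a p under 0.05, 5 genes of the list were lower and 1 was higher, where 3.68% of all probes were lower and 7.16% higher. By the same p, 693 of the 15159 named genes were lower and 1286 higher. General neuron markers also lay below 0 for the most part, with 8 of 9 means below 0 and a median of -0.14. Their part in the granule gene values was not tested.

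Of 9 transcription factors of the neuroendocrine lineage, 8 were measured and 1 passed the threshold. *Arnt2*, a partner of SIM1 in the formation of the paraventricular and supraoptic nuclei, was lower at -0.20 (SE 0.05, unadjusted p = 0.00716, adjusted p = 0.292, limma), below 0 on 6 of 8 arrays. This call too was lost without arrays 5 and 8 (unadjusted p = 0.0339, limma) and without arrays 6 and 7 (unadjusted p = 0.0114, limma). *Fezf1*, a factor of the ventromedial hypothalamus, had a mean of -0.31 and values of -1.02 and -1.22 on arrays 5 and 8, against -0.18 to 0.12 on the others.

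All 6 genes of the dopamine and prolactin axis had a mean below 0, against 7943 of 15159 named genes. Their median was -0.42, and 0 of them passed the methods' threshold. *Th*, the rate-limiting enzyme of dopamine synthesis, had ratios of -1.39, -1.46, 0.32 and 0.30 on arrays 1 to 4, and -0.04, -0.89, -0.78 and 0.00 on arrays 5 to 8. Its mean was -0.49 (limma unadjusted p = 0.0941). *Ddc*, the next enzyme of the pathway, ran alongside at -0.96, -1.04, 0.17 and 0.11, then -0.24, -0.54, -0.80 and -0.03, with a mean of -0.42 (unadjusted p = 0.0432, limma). The arrays on which *Th* and *Ddc* were lowest, 1 and 2, were those on which *Gnrh1*, *Trh* and *Tac3* were highest.

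Marker genes of neighbouring nuclei and tissues varied over the arrays beside these values. Of 4 other arcuate neuron markers, all 4 were below 0 on both arrays 5 and 8, where 27.9% of named genes were. This was not particular to them. All 8 oligodendrocyte markers, 12 of 18 receptors and 10 of 14 granule genes were below 0 on both too, against 2 of 8 microglia markers. The list medians on arrays 5 and 8 were -0.85 and -0.84 for arcuate markers and -0.27 and -0.38 for oligodendrocyte markers. *Agrp* was at -1.11 and -1.04 there against -0.09 to 0.05 elsewhere, and *Pomc* at -1.11 and -1.08 against -0.20 to 0.33. *Cartpt*, a peptide of several hypothalamic nuclei, passed the threshold at -0.42 (unadjusted p = 0.00198, adjusted p = 0.254, limma) and lay between -0.67 and 0.00 over the arrays. The median of the list was -0.25. The mean log2 level of the list lay between 11.48 and 12.18 in vehicle and between 11.33 and 12.06 in RA. *Ghrh* and *Pdyn* had their lowest ratios on the same arrays.

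Pituitary markers were measured for 8 of 9 genes, 5 of them well above background, with a median of -0.06, and none passed the threshold. *Cga* and *Tshb*, the subunits of thyrotropin, which the pars tuberalis beside the median eminence also makes, were at -1.67 and -1.80 and at -1.15 and -1.52 on arrays 5 and 8. The other measured genes of the list did not share values this low, lying between -0.47 and 0.61 there. Of the 8 genes, 4 were below 0 on both arrays, and the list's medians there were -0.26 and -0.19. *Gh1*, the growth hormone gene that defines somatotrophs, was well above background in 1 vehicle channel and in 0 RA channels. The list's mean level lay between 7.95 and 8.47 in vehicle and between 7.76 and 8.14 in RA. On the same arrays the 4 measured thalamus markers had medians of 0.60 and 0.84. *Prkcd* was at 1.39 and 1.48 and *Lef1* at 0.86 and 0.80, against at most 0.27 and 0.17 elsewhere. *Slc17a7* did not share this, at 0.03 and 0.10, and was well above background in 1 vehicle channel and in 0 RA channels. Over all 8 arrays the median of the means of the 4 genes was 0.07. Their mean level lay between 8.36 and 9.40 in vehicle and between 8.65 and 9.46 in RA. *Vip*, a peptide of the suprachiasmatic nucleus, was at 1.01 and 1.31 there and at -0.81 to 0.27 elsewhere. The other 3 measured genes of the suprachiasmatic list did not share this, with values between -0.40 and 0.17 on arrays 5 and 8, where the list's medians were 0.01 and -0.12. Of that list 4 of 6 genes were measured, with a median of 0.01 over all arrays and mean levels between 7.68 and 8.24 in vehicle and between 7.85 and 8.15 in RA, and *Lhx1* was lower at -0.23 (unadjusted p = 0.00633, limma). The part of the content of the tissue block in the hormone gene values was not tested. The *Avp* mean was 0.89 without arrays 5 and 8, and over arrays 6 and 7, where *Th* was at -0.89 and -0.78, its ratio was 0.29 and 0.35.

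Choroid plexus markers split the arrays in another way. *Ttr*, the plexus transthyretin gene, was at -4.48 and -5.11 on arrays 6 and 7 and between 0.57 and 1.76 on the others, and all 11 genes of the list were below 0 on arrays 6 and 7. The median of their means was -0.21. The mean level of the list lay between 7.61 and 10.02 in vehicle and between 7.78 and 9.51 in RA. Of the hormone genes, 1 was below 0 on both of these arrays (*Ghrh*), where 29.7% of named genes were, and 5 were above 0 on both. Without these arrays the *Avp* mean was 0.76 (unadjusted p = 0.0204, limma) and the *Ghrh* mean -0.37.

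Glial lists were measured in full, and their counts stand beside 2.61% of all probes higher and 0.645% lower by the same threshold. Among the 15159 named genes, 534 were higher and 120 lower. Of 8 microglia markers, 2 were higher and 1 lower by the threshold, with *Aif1* at 0.88, *Itgam* at 0.87 and *Tmem119* at -0.52, and a median of 0.02. Of 9 tanycyte and ependymal markers, 1 was higher, the intermediate filament gene *Vim* at 0.62, and the median was -0.04. Of 8 astrocyte markers 2 were lower and the median was -0.18, and of 8 oligodendrocyte markers 1 was lower and the median was -0.19. Of 9 general neuron markers measured, 2 were lower, *Nefm* at -0.39 and *Nefl* at -0.30.

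**Figure D4:**
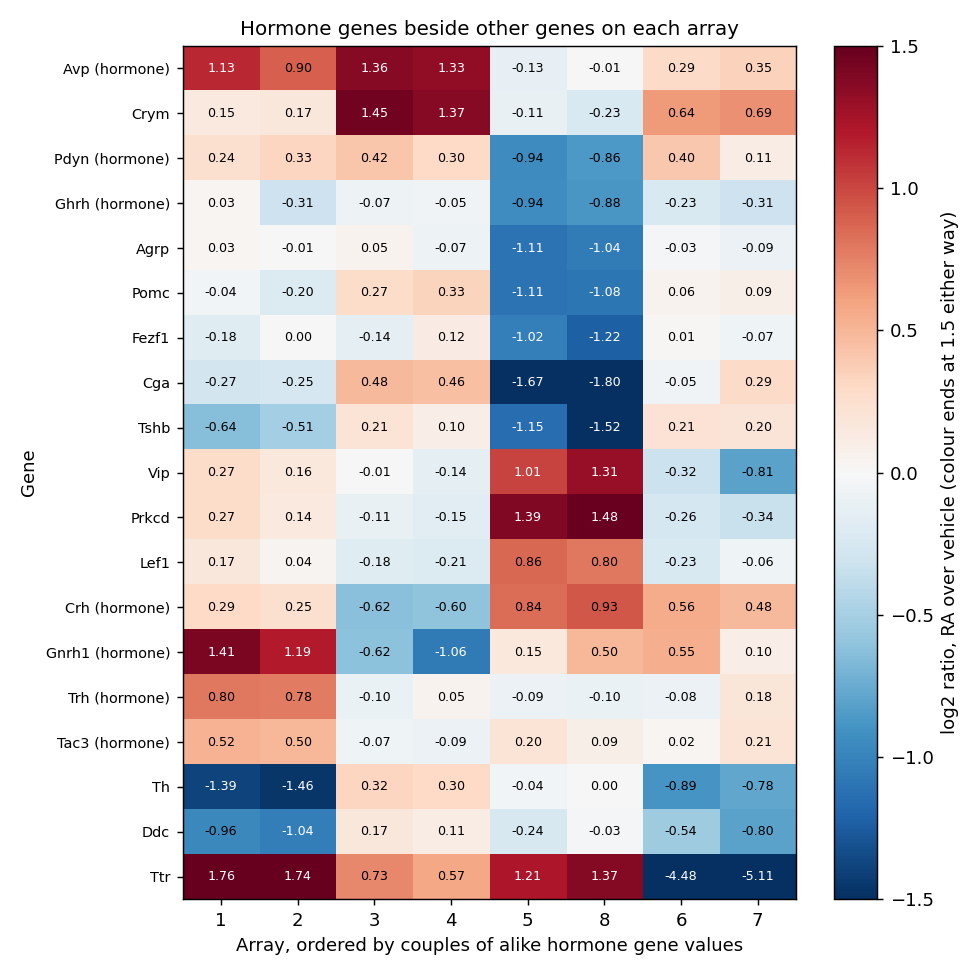
Log2 ratio of RA over vehicle (colour and printed values) for hormone genes and for other genes named in the text (rows) on the 8 arrays (columns), which are ordered by the couples in which the hormone genes were alike. *Pdyn* and *Ghrh* are low on arrays 5 and 8 with *Agrp*, *Pomc*, *Fezf1*, *Cga* and *Tshb*, where *Prkcd* and *Vip* are high, and *Gnrh1*, *Trh* and *Tac3* are highest on arrays 1 and 2, where *Th* and *Ddc* are lowest.

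The genes whose values over the 8 arrays lay nearest to those of the 3 most variable hormone genes were sought among 10877 named genes, by the mean absolute difference of the log2 ratios. For *Avp* the nearest was *Crym*, the thyroid hormone binding protein mu-crystallin, at a mean difference of 0.35, followed by *Tagln* and *Ngfr*. The *Crym* ratio was 0.15, 0.17, 1.45 and 1.37 on arrays 1 to 4, and -0.11, 0.64, 0.69 and -0.23 on arrays 5 to 8, so it lay below *Avp* on arrays 1, 2 and 8 and above it on the other 5. For *Crh* the nearest were *Ctse*, *Abca1* and *Ttk* (0.19, 0.21 and 0.21). For *Gnrh1* they were *Chm*, *Ttk* and *Dlx1*, none nearer than 0.39.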

How the data were processed

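RNA of the hypothalamus from 4 rats given RA and 4 given vehicle was compared on 8 two-colour arrays (SurePrint G3 Rat GE 8x60K, 1 slide) with dye-swap. The authors deposited the scanner output, with an intensity per spot for either dye and Agilent's log10 ratio, and a table of normalised log2 ratios. Per their methods, limma, loess normalisation and averaging of identical probes were used.

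Here, R 4.3.3 and limma 3.58.1 were used. Median spot signals were corrected by normexp (offset 50) and loess, control spots (4259 of 62976) and outlier spots were dropped, and spots of a probe were averaged, which left 30367 probes. Probes were named through RefSeq accessions (18006 probes, 15159 genes), and the brightest probe stood for a gene. Levels per channel are after loess and Aquantile. Well above background means that Agilent flagged so a share of 0.5 or more of the spots of a probe. Ratios were turned to RA over vehicle and averaged in couples of opposite dye order, which limma tested in all 24 couplings, since the labels do not pair the arrays. Dye order and slide row were tested over 8 arrays taken as independent. The deposited ratios ran the same way, with a correlation of 0.985 to 1.00 with loess ratios without background correction. With the background-corrected ratios used here the correlation was 0.932 to 0.980. The number of arrays limits the precision, and 57.4 to 74.6% of probes were well above background per channel. The fit was tested on simulated data.

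The hormone genes and lists were chosen with earlier results of these data known, and no list was tested as a set. All 10 hormone genes are named. Of each pathway list those with p under 0.01 are named, or else the 2 with the smallest p, and a receptor may be named with its hormone. Of each marker list up to 3 with the largest mean ratio are named. *Fezf1* falls outside this rule and was chosen after its values were seen.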

Additional observations from a re-analysis of the deposited data

Results flagged for a closer look

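In a search of each gene within each dye order (18 groups of 4 arrays), 2 values stood apart from the other 3 by Dixon's test, which flags about 1 group in 20 by chance, or 0.9 of 18. *Trh* was at 0.80 on array 1, with the next value of its dye order at -0.08. *Pdyn* was at -0.86 on array 8, with the next value at 0.24. In both cases an array of the other dye order gave a like value (*Trh* 0.78 on array 2 and *Pdyn* -0.94 on array 5). The difference of *Avp* between slide rows, -1.06 (row 2 minus row 1, limma adjusted p = 0.00367), was singled out as well, and all 4 arrays of row 1 were higher than all 4 of row 2.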

How the results depend on the processing

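The count of hormone genes past an unadjusted p of 0.01 was 0, and it was 5 with the smallest p over the 24 couplings, 2 with 8 arrays taken as independent (with a dye term, or with dye and row terms), 2 in row 1, 3 in row 2 and 2 at a p of 0.05. The fits within a row or with independent arrays treat repeat readings of the same rats as independent, so their p is too small. The same can hold for the smallest p over the couplings. The count of pathway genes, 2, was 0 with the Agilent ratio or the adjusted p, 5 with independent arrays and 11 at a p of 0.05. The median of the hormone genes, 0.17, was -0.0220 in row 2, 0.0776 in the deposited values and 0.0756 with outlier spots kept, where it is the *Trh* value, moved by 1 spot on array 7. *Kiss1*, at -0.08, was -0.27 with plain background subtraction and -0.37 with the Agilent ratio. *Pdyn*, at -0.00, was 0.00064 without background correction, 0.0010 in the deposited values, 0.0163 when scaled between arrays, 0.0481 with RA in Cy5 and 0.32 in row 1. *Kiss1* was 0.0312 with RA in Cy5, *Sst* was -0.0597 with RA in Cy3 and -0.0311 in row 2, *Trh* was -0.0220 in row 2 and *Crh* -0.17 in row 1. The cause of these turns was not tested.

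Leaving out each of 16 couples of arrays gave -0.0371 to 0.0838 for *Sst*, -0.0226 to 0.27 for *Trh*, -0.0624 to 0.65 for *Gnrh1*, -0.13 to 0.30 for *Pdyn*, -0.46 to -0.16 for *Ghrh* and 0.42 to 0.89 for *Avp*. *Avp* had a p under 0.01 in 7 of the 16 fits. The median of the hormone genes was lowest without arrays 1 and 2 (-0.0260) and highest without arrays 3 and 4 (0.247), the hormone gene count was 0 to 2, with 2 (*Avp* and *Pdyn*) without arrays 5 and 8, and the pathway count was 0, with *Chga* and *Arnt2* lost, without either arrays 5 and 8 or arrays 6 and 7. *Avp*, *Gnrh1* and *Tac3* stayed above 0 and *Ghrh* below 0 in all 15 other alternatives. Some of these, such as the fits with independent arrays, left the mean as it was. The sign could not turn there. Every ratio sets RA against vehicle material on the same array, and the labels give no replicate numbers that pair arrays further. Signal limits *Kiss1*, seen in Cy5 alone.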
